A study of Mus musculus with 94 samples.

Results

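The transcription factor p53 and 31 of its known target genes were followed in 94 4T1 mouse tumors that had or had not been irradiated. The 32 genes were taken by symbol from the table of 49080 genes, and every symbol matched 1 row. They comprised the factor itself (Trp53), 3 genes that act back on p53, 6 that arrest or slow the cell cycle, 10 of the apoptosis machinery, 3 death receptors, 5 genes of DNA repair and nucleotide supply and 4 of metabolic and oxidative stress.

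The 4T1 line is a mammary carcinoma of BALB/c origin that serves as a model of triple-negative breast cancer. Tumors were grown from cells injected under the skin of the right hind limb of female BALB/c mice aged 8 weeks, and mice entered a group when tumors measured 100 to 200 mm3. The 4 treatments were no treatment (control), a single x-ray dose of 6 Gy to the tumor (6 Gy), the cyclooxygenase inhibitor indomethacin, given throughout in water at 30 mg/L (INDO), and both agents (6 Gy + INDO). Bulk RNA was taken 1, 3, 7, 15 and 23 days after irradiation (IR). Controls numbered 4, 5, 5, 3 and 3 tumors on these days, and every other group had 5 tumors except 6 Gy + INDO on day 3, with 4. All hosts were immunocompetent and carried no engineered allele, so each tumor mixed 4T1 cells of a single line with infiltrating and neighboring host cells. Nothing in the labels ties the tumors of a group to separate experiments, so p-values measure the spread between the tumors sampled here.

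In cells with intact p53, ionizing radiation breaks DNA, the kinases ATM and ATR and their partners stabilize p53, and p53 binds paired sites near its target genes and raises their transcription. Among these targets are Cdkn1a, which encodes the cell cycle inhibitor p21, and Mdm2, whose product marks p53 for degradation and so closes a feedback loop. 4T1 cells are known to lack p53, whereas the cells of the host mouse have it. The comparisons ask which of the targets still changed after 6 Gy in such tumors, and whether their levels moved with markers of tumor epithelium or of host cells.

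The sequences below show the p53-type elements found in the promoters of the targets, because they are the letters through which the factor is known to read its DNA. RefSeq promoters of GRCm38.p6, from 250 bases before to 50 bases after the annotated start, were held for 24 of the 32 genes. An element was 2 sites of 10 bases, each with purines, the core C, A or T, A or T, G, and pyrimidines, at most 13 bases apart. At most 2 mismatches were allowed outside the cores, and the strand of the gene was searched with overlaps allowed. The pattern reads the same on the opposite strand. Such an element stood in 3 of the 24 promoters (12.5%) and in 667 of 27025 promoters of all genes (2.47%). Capitals mark the cores.
Cdkn1a, chr17:29090906-29090937, plus strand: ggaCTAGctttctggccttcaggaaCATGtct
Bax, chr7:45467090-45467114, minus strand: tgaCAAGcatatcccaggCAAGctt
Sesn1, chr10:41887253-41887275, plus strand: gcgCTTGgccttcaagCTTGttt
The Cdkn1a element had 0 mismatches and a spacer of 12 bases, while those of Bax and Sesn1 had 2 mismatches each. The Sesn1 start used here lies inside the annotated span of the gene. A match is a description of the letters and no measurement of binding. The 3 genes did not move alike after 6 Gy: Cdkn1a was called on top of INDO and not against control, Bax was called in neither, and Sesn1 fell, as described below. Trp53inp1, Zmat3, Pmaip1, Perp, Tnfrsf10b, Rrm2b, Xpc and Ddb2 had no promoter entry.

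Trp53 mRNA was present in every tumor, with the lowest, median and highest level at 15.8, 26.4 and 45.9 CPM (read counts scaled to a fixed library total, with library sizes corrected by the trimmed mean of M values, TMM). Its count ranged from 361 to 2662 reads. Trp53 lies on chromosome 11 between 69580348 and 69591873 (mm10). On day 1 control tumors held 30.7, 29.3, 26.9 and 23.8 CPM, and tumors given 6 Gy held 25.4, 22.7, 26.2, 20.2 and 20.8 CPM. On that day INDO tumors held 27.8, 29.7, 30.6, 31.5 and 29.7 CPM and 6 Gy + INDO tumors 32.8, 30.3, 32.5, 31.9 and 24.9 CPM. The ranges overlapped in both pairs. With all tumors and TMM, edgeR called Trp53 in no comparison of treatments. As a mean over the 5 days its log2 fold change after 6 Gy was -0.05 (SE 0.07, adjusted p = 0.71, 95% interval -0.18 to 0.08), and on top of INDO it was -0.07 (SE 0.06, adjusted p = 0.594, interval -0.19 to 0.06). Against control the mean of INDO was 0.15, SE 0.07, adjusted p = 0.0755, which was called by DESeq2 (0.18, adjusted p = 0.0216) and in 4 of the edgeR alternatives (RLE factors, housekeeping scaling, the epithelium score as a covariate and without the tumors with receptor reads described next). With both agents it was 0.08, SE 0.07, adjusted p = 0.316, called with housekeeping scaling (0.39), without day 3 and without those tumors. For radiation it was called on day 1 against control with the epithelium score as a covariate (-0.37, adjusted p = 0.0307) and without 6 Gy replicate 3, and on day 3 on top of INDO without 6 Gy + INDO replicate 3. In a bulk sample, fewer cells of a type and less RNA per cell cannot be told apart, and a Trp53 count per tumor does not say which cells its reads came from.

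Library depth ran from 21 M to 109.3 M counts (M, mega), with a median of 73.4 M in controls, 66.6 M in 6 Gy, 41.05 M in INDO and 37.5 M in 6 Gy + INDO. Over all days the comparison on top of INDO thus rested on shallower libraries, but depth varied by day. On day 1 it ran from 42.1 to 74.3 M in controls and 38.7 to 88.6 M after 6 Gy. It ran from 34.99 to 74.3 M in INDO and 41.3 to 72.4 M in 6 Gy + INDO. In 11 tumors olfactory and vomeronasal receptor genes, which these tissues are not known to use, took 332 to 1952 CPM, against at most 131 CPM in the other 83. They were 1 INDO tumor on day 1, 3 of 6 Gy + INDO on day 3, 3 of 6 Gy + INDO on day 7, 1 control and 1 INDO on day 15, and 2 of 6 Gy + INDO on day 23. All 16 markers of tumor epithelium were detected. Skeletal muscle markers summed to between 25.8 and 27698 CPM in a tumor.

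Radiation was read in 2 comparisons that share no tumor, 6 Gy against control and 6 Gy + INDO against INDO, with edgeR's quasi-likelihood F test and Benjamini-Hochberg adjustment over all genes tested. Genes with an adjusted p under 0.05 are referred to as called. On day 1, 6 Gy raised 9 of the 32 genes and lowered 2, against a call in 15.6% of all genes tested (6.15% higher and 9.43% lower). The members that rose belonged to the feedback genes (Trp53inp1, Mdm2), the arrest genes (Gadd45a, Zmat3), the death receptors (Eda2r, Tnfrsf10b) and the repair genes (Ddb2, Polk, Xpc), and those that fell were Btg2 and Sesn1. On top of INDO, Cdkn1a and Trp53inp1 rose and no member fell, against a call in 0.018% of all genes tested (0.0135% higher and 0.00449% lower). Only 4 genes of all tested were called there, the other 2 being Exoc4 (higher) and H1f1 (lower). Trp53inp1 was the only member called on day 1 in both comparisons, and its second call was lost in most fits that left out 1 tumor, as given below. The difference between the 2 day 1 effects was not tested. The log2 fold change was above 0 in 19 of the 32 genes after 6 Gy (median 0.11 against 0.06 over all genes tested) and in 27 on top of INDO (median 0.16 against -0.02), where genes of the same tumors are not independent.

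**Figure D1:**
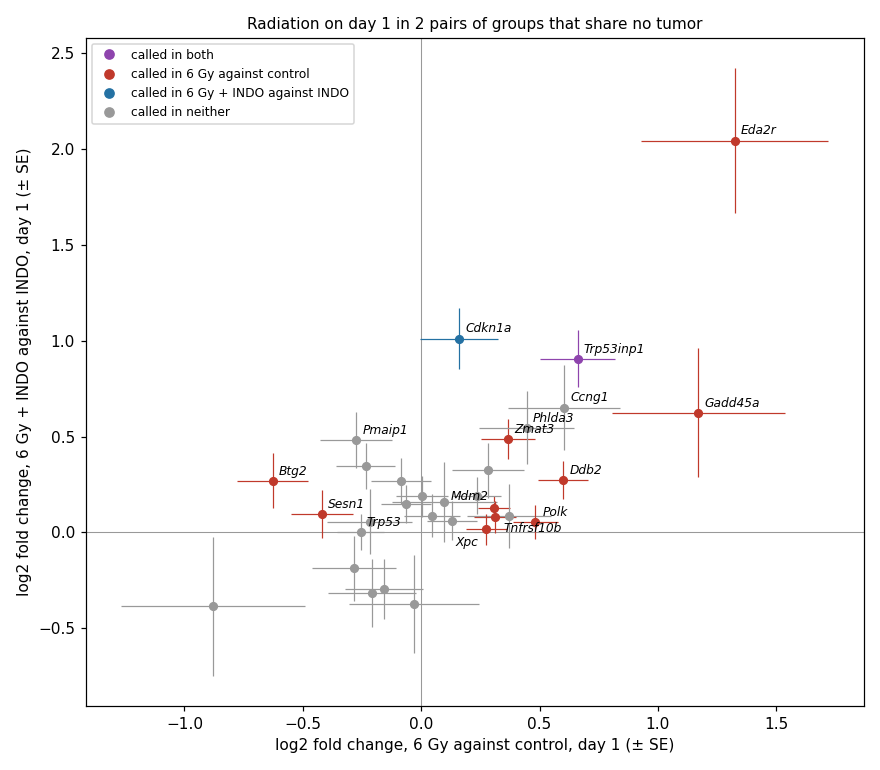
Log2 fold change on day 1 of each of the 32 genes after 6 Gy against control (horizontal axis) and after 6 Gy + INDO against INDO (vertical axis), 1 point per gene, colored by the comparison in which it was called. Trp53inp1 and Eda2r lie far out on both axes, and Cdkn1a is high on the vertical axis alone (1.01 against 0.16).

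Host cell markers were lower in the day 1 tumors given 6 Gy than in controls. T cell markers were lower after 6 Gy in 15 of 15 genes (summed level 101 to 146 CPM in controls and 56.7 to 84.9 CPM after 6 Gy). Endothelium was lower in 11 of 14 genes (424 to 562 and 231 to 351 CPM) and fibroblasts and matrix in 9 of 13 (7531 to 15872 and 3236 to 7351 CPM). Macrophages were lower in 7 of 14 (2551 to 3258 and 711 to 1173 CPM) and neutrophils in 6 of 11 (212 to 369.7 and 116 to 374 CPM). Tumor epithelium was higher in 3 of 16 (2917 to 3354 and 3167 to 4288 CPM). Over all genes tested, 9.43% were called lower and 6.15% higher in this comparison. With INDO in both groups edgeR called none of these markers on day 1, with between 0 (endothelium) and 3 (neutrophils) of a list at an unadjusted p under 0.05. There the INDO tumors had a median of 65.6 CPM for T cells and 910 CPM for macrophages before any radiation was added. With 6 Gy + INDO the medians were 63.4 and 903 CPM, and in controls 124 and 2676 CPM. The day 1 calls of Tnfrsf10b, Xpc, Gadd45a and Sesn1 were lost with the epithelium score and also with the muscle score as a covariate, and that of Zmat3 with the muscle score. Beyond these and the covariate fits given with single genes below and among the alternatives, the part of these shifts in the changes of the members was not tested.

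Trp53inp1 encodes a nuclear stress protein that promotes p53 phosphorylation (chromosome 4, 11156441 to 11174379). On day 1 its level was 20.1, 16.7, 23.2 and 26.6 CPM in control tumors and 33.6, 26.3, 35.7, 38.9 and 36.1 CPM after 6 Gy. It was 17.5, 15.1, 17.1, 19.1 and 14.4 CPM in INDO tumors and 29.99, 28.9, 26.2, 44.5 and 29.4 CPM in 6 Gy + INDO tumors. Every 6 Gy + INDO tumor was above every INDO tumor, while 1 tumor after 6 Gy lay just under the highest control. The rise was 1.58-fold after 6 Gy (log2 fold change 0.66, SE 0.16, adjusted p = 0.0082) and 1.87-fold on top of INDO (0.91, SE 0.15, adjusted p = 0.0481). The second call was lost in 15 of 19 fits that left out 1 tumor (all but those without 6 Gy + INDO replicate 4, 6 Gy replicate 2 or control replicate 2 or 4), with the log2 fold change between 0.76 and 0.97 and the adjusted p up to 0.169. It was also lost with RLE factors (adjusted p = 0.062), with housekeeping scaling (0.126), with all 94 tumors in 1 fit (0.132) and without the tumors with receptor reads (0.132).

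By day 3 the 6 Gy tumors still held 39.3, 39.99, 33.4, 33.7 and 30.6 CPM of Trp53inp1 against 17.7, 20.99, 22.8, 20.9 and 20.997 CPM in controls. The groups did not overlap, but the test gave a log2 fold change of 0.77, SE 0.31, adjusted p = 0.127, in a fit whose INDO group held 1 tumor at 64.5 CPM of the gene. Afterwards the order of the groups changed. On day 23 the mean was 57.9 ± 17.2 CPM (SD, n = 3) in controls and 32.3 ± 13.9 CPM (SD, n = 5) after 6 Gy, which did not pass the test (log2 fold change -0.83, SE 0.35, adjusted p = 0.317). The 6 Gy effect on Trp53inp1 differed between the 5 days in both comparisons (adjusted p = 0.0135 against control and 0.0089 on top of INDO), where 3.82% and 24.8% of all genes did so. Ddb2 was the other member that did so against control, and Eda2r, Bcl2l1 and Cdkn1a the others on top of INDO. None of these was called with housekeeping scaling against control, or without the tumors with receptor reads on top of INDO.

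Cdkn1a (chromosome 17, 29090979 to 29100722), the p21 gene, was not called after 6 Gy alone on any day. On day 1 control tumors held 44.96, 35.2, 37.6 and 36.5 CPM and 6 Gy tumors 48.9, 48.1, 53.5, 32.5 and 31.6 CPM. The latter fell into 3 tumors above and 2 below all controls, and the log2 fold change was 0.16 (SE 0.17, adjusted p = 0.553, interval -0.16 to 0.48). INDO tumors held 26.8, 20.9, 25.3, 33.1 and 27.03 CPM on that day, and 6 Gy + INDO tumors held 57.9, 62.9, 56.1, 56.3 and 40.7 CPM. All 5 tumors given both agents were above all 5 given INDO, a 2.02-fold difference (log2 fold change 1.01, SE 0.16, adjusted p = 0.0341). All 5 INDO tumors lay below the 4 controls as well, and 4 of the 5 tumors given both agents lay above the 4 controls. Leaving out 1 tumor at a time kept the log2 fold change on top of INDO between 0.93 and 1.10, but the call was lost in 10 of 19 fits (adjusted p up to 0.162). As a mean over days Cdkn1a rose on top of INDO (0.35, SE 0.10, adjusted p = 0.018) and passed no test against control (0.19, SE 0.11, adjusted p = 0.229). The call of the mean on top of INDO was lost without day 1 and without day 3. It was also lost in 3 of 5 fits that left out a replicate number (0.27 to 0.42, adjusted p up to 0.157). On day 3 the values were 50.9, 33.1, 34.1, 36.95 and 32.6 CPM after 6 Gy and 28.7, 30.6, 26.4, 23.5 and 29.4 CPM in controls. These groups did not overlap, with a log2 fold change of 0.44, SE 0.17, adjusted p = 0.123.

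Mdm2 (chromosome 10, 117688875 to 117710758) rose by a small amount after 6 Gy on day 1. Controls held 55.6, 57.1, 58.4 and 63.5 CPM and 6 Gy tumors 68.2, 78.8, 72.8, 69.5 and 72.1 CPM, with no overlap (log2 fold change 0.31, SE 0.07, adjusted p = 0.00511). In INDO tumors the level was 57.8, 62.9, 62.2, 57.4 and 51.8 CPM, and in 6 Gy + INDO tumors it was 62.9, 65.2, 65.2, 63.96 and 68.1 CPM. Here the lowest tumor given both agents and the highest given INDO stood at 62.9 CPM each, and the difference did not pass the test (0.13, SE 0.06, adjusted p = 0.514, interval 0.00 to 0.25). The mean over days rose against control (0.17, SE 0.05, adjusted p = 0.0117) and was 0.00, SE 0.05, adjusted p = 1 on top of INDO. The day 1 call was lost when all 94 tumors shared 1 fit (adjusted p = 0.0993), with housekeeping scaling (0.275) and without the filter on low counts (0.0658). The call of the mean against control was lost without day 1 and without the tumors with receptor reads. It was also lost in 3 of 5 fits that left out a replicate number (0.15 to 0.19, adjusted p up to 0.0743). Ccng1, the third feedback gene, encodes cyclin G1. Its day 1 log2 fold changes were 0.61 after 6 Gy (adjusted p = 0.0916) and 0.65 on top of INDO (adjusted p = 0.348), and it passed no radiation test.

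**Figure D2:**
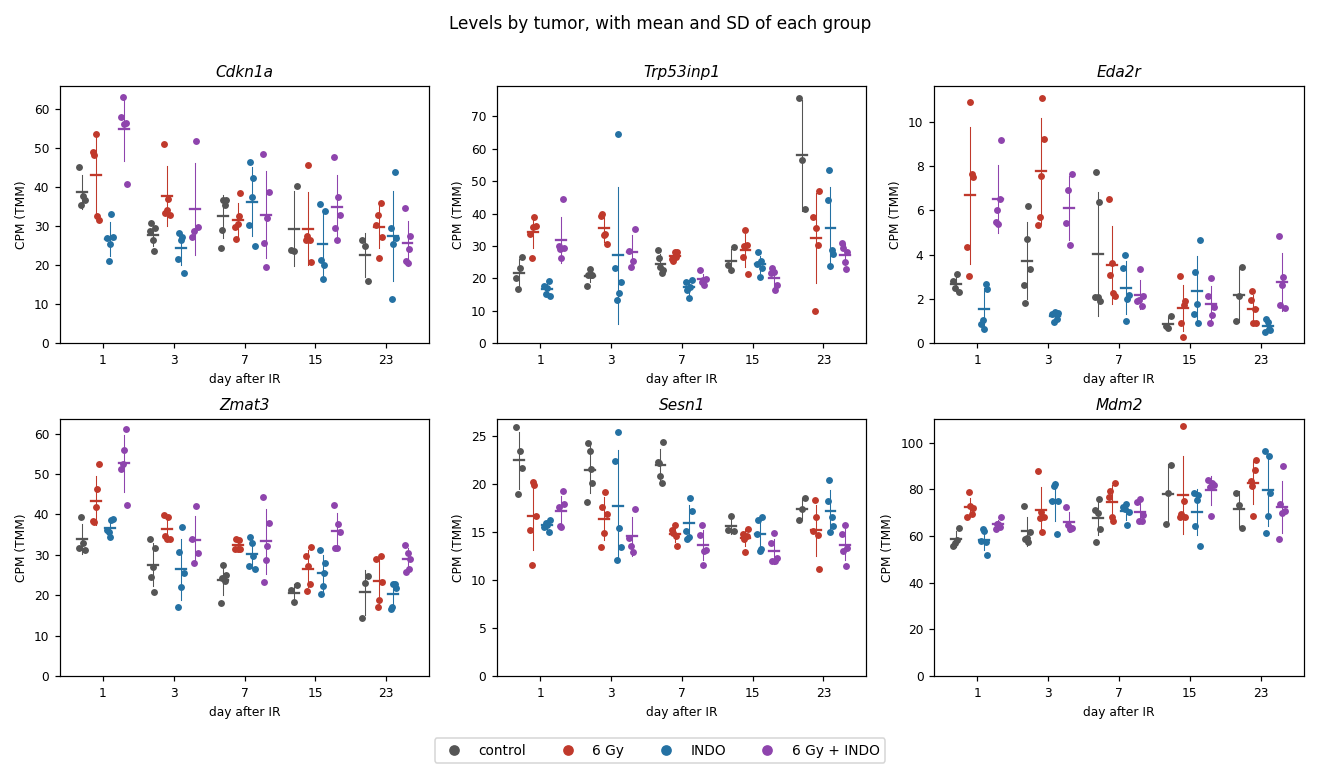
CPM of Cdkn1a, Trp53inp1, Eda2r, Zmat3, Sesn1 and Mdm2 by day after IR, 1 point per tumor, with the mean as a horizontal bar and the SD as a vertical line, for control, 6 Gy, INDO and 6 Gy + INDO. Eda2r on days 1 and 3 is higher in the irradiated groups, at means of 6.68 and 6.52 CPM on day 1, and on day 7 the groups overlap.

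Eda2r showed the largest log2 fold changes among the members on days 1 and 3. It encodes a death receptor of the tumor necrosis factor receptor family that binds ectodysplasin A2, and lies on chromosome X from 97333837 to 97377234. On day 1 controls held 2.79, 2.48, 3.14 and 2.32 CPM, and 6 Gy tumors held 4.33, 3.03, 10.9, 7.63 and 7.52 CPM. INDO tumors held 0.872, 1.03, 0.642, 2.68 and 2.43 CPM, and 6 Gy + INDO tumors 5.47, 6.01, 5.39, 6.54 and 9.19 CPM. Muscle markers summed on day 1 to 1555 to 5899 CPM in controls, 38.1 to 5415 CPM after 6 Gy, 134 to 18258 CPM in INDO and 357 to 6623 CPM in 6 Gy + INDO tumors. Only 1 of the 5 tumors given 6 Gy overlapped the controls, and none of those given both agents overlapped INDO. The log2 fold change was 1.32 against control (SE 0.39, adjusted p = 0.0288) and 2.04 on top of INDO (SE 0.38, adjusted p = 0.0921), the latter not past the threshold.

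On day 3 Eda2r stood at 2.61, 1.80, 4.68, 6.20 and 3.33 CPM in controls and 5.36, 5.72, 7.56, 11.1 and 9.26 CPM after 6 Gy, with 1 control among the 6 Gy values. It stood at 1.33, 0.950, 1.41, 1.07 and 1.34 CPM in INDO tumors and 5.42, 6.93, 4.45 and 7.64 CPM in 6 Gy + INDO tumors, far apart. Both differences were called, as a 2.09-fold rise against control (log2 fold change 1.07, SE 0.29, adjusted p = 0.0304) and a 5.10-fold rise on top of INDO (2.35, SE 0.31, adjusted p = 0.00244). Eda2r was the only member called on day 3 in both. Of the 4 tumors given both agents on day 3, 3 were among those with receptor reads, and without them the log2 fold change of 1.88 was not called (adjusted p = 0.156). On day 7 the log2 fold changes were -0.20 and -0.18. The mean over days was 0.50, SE 0.21, adjusted p = 0.0775 against control, not called, and 1.14, SE 0.20, adjusted p = 0.000216 on top of INDO. Eda2r also had the steepest slope of any member on the skeletal muscle score, described with the other scores below, and with that score as a covariate, a fit chosen after seeing the data, its log2 fold change was 1.71 on day 1 after 6 Gy (adjusted p = 0.00779), 1.15 on day 3 (adjusted p = 0.0104) and 2.15 on day 3 on top of INDO (adjusted p = 0.00329).

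Beside Eda2r, Ddb2 was the only member called on day 3 after 6 Gy, so 2 of 31 members rose and 0 fell, against a call in 7.72% of all genes tested (3.62% higher and 4.1% lower). Gdf15, at 1 to 45 reads, did not pass the filter on low counts on day 3. In the presence of INDO 1 of 31 rose and 0 fell, against a call in 4.94% of all genes tested (3.63% higher and 1.31% lower). Members whose groups did not overlap gave a further view. On day 1 these were 3 higher after 6 Gy (Mdm2, Polk, Ddb2; 4.39% of all genes tested) and 7 higher on top of INDO (Trp53inp1, Cdkn1a, Zmat3, Phlda3, Pmaip1, Ei24, Eda2r; 2.93%). On day 3 they were 6 higher after 6 Gy (Trp53inp1, Cdkn1a, Zmat3, Phlda3, Polk, Ddb2; 6.34%) and 1 higher on top of INDO (Eda2r; 3.44%). In the other direction, Btg2 was lower after 6 Gy on day 1 (8.92% of all genes tested), Ercc5 was lower on top of INDO on day 3 (3.17%) and day 23 (1.29%), Sesn1 was lower after 6 Gy on day 7 (8.43%) and Ccng1 on day 23 (6.83%). From day 7 on, those higher were Zmat3 on day 7 (3.97%) and Trp53 on day 15 (2.96%) after 6 Gy, and on top of INDO Zmat3 on day 15 (1.85%) and Zmat3 and Eda2r on day 23 (1.18%).

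On day 7, Zmat3 and Ddb2 rose and Sesn1 and Pmaip1 fell after 6 Gy, against a call in 16% of all genes tested (5.69% higher and 10.3% lower). Leaving out 1 tumor ended the day 7 call of Zmat3 in 8 of 20 fits (log2 fold change 0.38 to 0.51, adjusted p up to 0.0755). It ended that of Ddb2 in 5 of 20 (0.37 to 0.55, adjusted p up to 0.0763). Both calls were lost without the filter on low counts. That of Zmat3 was also lost with the epithelium score as a covariate and with replicate numbers as a block. No member was called on top of INDO on day 7 by edgeR (8 at an unadjusted p under 0.05, and 0 by DESeq2), against a call in 1.34% of all genes tested (0.777% higher and 0.562% lower). No member was called on days 15 and 23 in either comparison, and no gene of the whole table was, at 0% in each direction. For 6 Gy against control, 2 members on day 15 and 5 on day 23 had an unadjusted p under 0.05, and DESeq2 called 0 on both days. With INDO in both groups it was 5 on each day, and DESeq2 called 0 on day 15 and 1 on day 23.

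As a mean over all 5 days, 6 Gy raised 5 members (Ddb2, Zmat3, Polk, Tnfrsf10b, Mdm2) and lowered 3 (Sesn1, Pmaip1, Btg2), against a call in 19.8% of all genes tested (9.19% higher and 10.6% lower). The calls of Polk and Tnfrsf10b were lost without day 1, and that of Pmaip1 without day 7 or 23. That of Btg2 was lost without day 1 or 7 and with housekeeping scaling. It was also lost in 2 of 5 fits that left out a replicate number (-0.48 to -0.40, adjusted p up to 0.161). Given on top of INDO, 6 Gy raised 3 (Zmat3, Eda2r, Cdkn1a) and lowered Sesn1, against a call in 10.8% of all genes tested (7.21% higher and 3.54% lower). Zmat3 and Sesn1 were thus called in the same direction in both comparisons. The median over the members was 0.04 on the log2 scale against 0.03 over all genes tested, and on top of INDO it was 0.00 against 0.05.

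**Figure D3:**
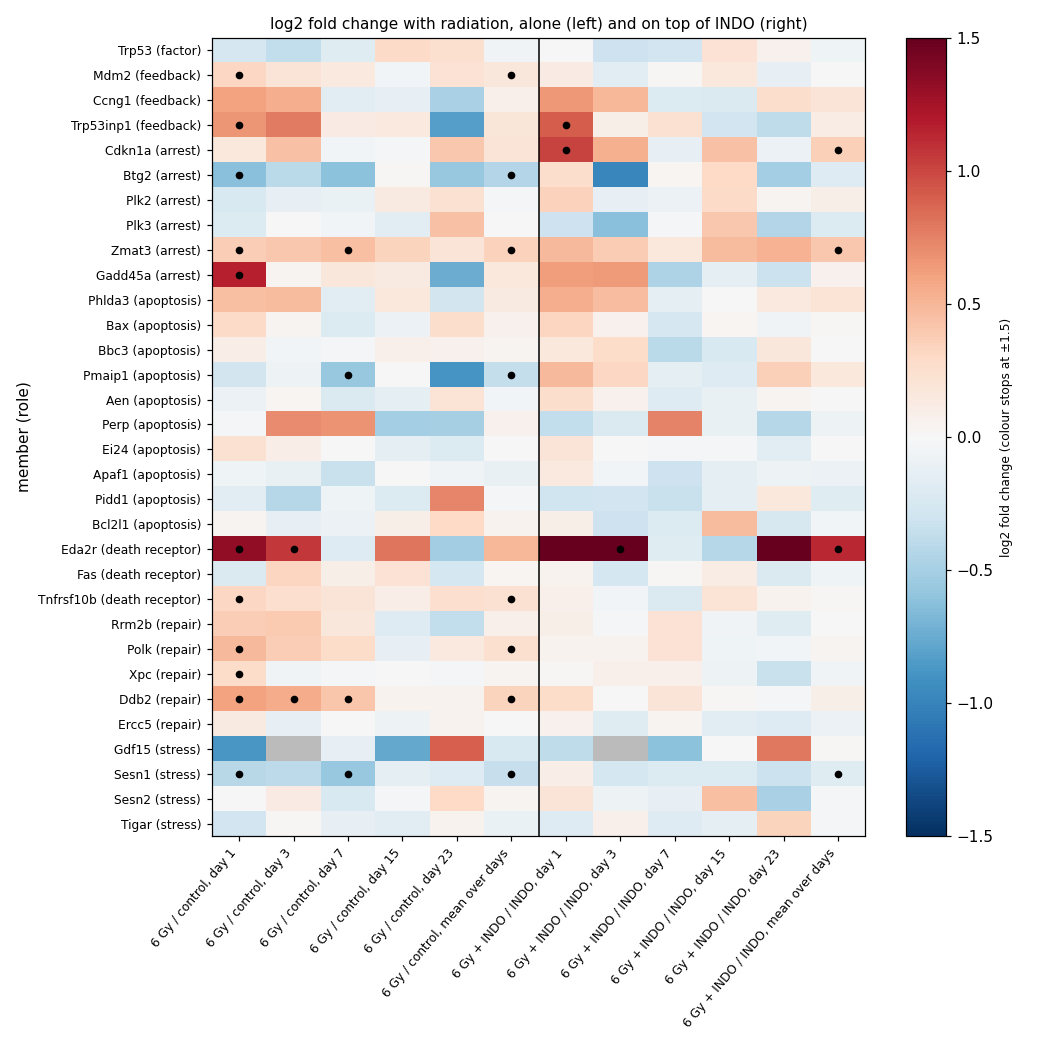
Log2 fold change of each of the 32 genes (rows, with role) by day and as a mean over days, for 6 Gy against control (left) and 6 Gy + INDO against INDO (right), with a black dot where the gene was called and gray where it was not tested. Dots gather in the left columns for days 1 to 7 and the mean, and none stands on days 15 and 23.

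Zmat3 encodes a zinc finger RNA-binding protein that slows proliferation (chromosome 3, 32334792 to 32365665). On day 1 it was at 31.8, 39.3, 32.996 and 31.3 CPM in controls and 38.4, 38.2, 41.9, 46.2 and 52.4 CPM after 6 Gy. It was at 36.2, 35.6, 34.4, 38.7 and 38.9 CPM in INDO tumors and 51.3, 52.4, 55.9, 61.1 and 42.3 CPM in 6 Gy + INDO tumors. The first pair overlapped by 1 control and the second not at all. The lowest, median and highest level over all days was 14.3, 24.7 and 39.3 CPM in 20 controls, 17.1, 32.02 and 52.4 in 25 tumors given 6 Gy, 16.7, 27.3 and 38.9 in 25 given INDO and 23.3, 33.3 and 61.1 in 24 given both. In each of the 10 within-day comparisons the log2 fold change of Zmat3 was above 0, from 0.16 to 0.52. The mean over days was 0.35, SE 0.07, adjusted p = 0.000172 against control and 0.40, SE 0.07, adjusted p = 0.000216 on top of INDO. Untreated tumors lost Zmat3 with time, from 33.8 ± 3.71 CPM (SD, n = 4) on day 1 to 20.7 ± 5.58 CPM (SD, n = 3) on day 23.

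Sesn1 moved the other way. It encodes sestrin 1, a stress protein that restrains mTORC1 signaling. Control tumors held 22.3, 22.3, 20.9, 20.1 and 24.4 CPM on day 7 and 6 Gy tumors 15.3, 14.98, 15.8, 14.6 and 13.6 CPM, with no overlap (log2 fold change -0.57, SE 0.09, adjusted p = 0.000435). INDO tumors held 15.1, 14.4, 14.6, 18.6 and 17.2 CPM on that day and 6 Gy + INDO tumors 14.7, 15.7, 11.6, 13.1 and 13.1 CPM, which did overlap (-0.21, SE 0.09, adjusted p = 0.235). On day 1 the levels were 26.03, 18.95, 23.4 and 21.7 CPM in controls and 15.3, 11.6, 20.3, 19.98 and 16.7 CPM after 6 Gy (-0.42, SE 0.13, adjusted p = 0.0374). The mean over days fell by 0.34 on the log2 scale against control (SE 0.06, adjusted p = 1.26e-05) and by 0.18 on top of INDO (SE 0.06, adjusted p = 0.0338). The second fall was lost with housekeeping scaling, at -0.03 (adjusted p = 0.905), with RLE factors, without day 3, 7 or 23, without the tumors with receptor reads and in 4 of the 5 fits that left out a replicate number (all but number 3, -0.22 to -0.19, adjusted p up to 0.0945). Its day 1 call was lost with the epithelium score (adjusted p = 0.115) and with the muscle score (0.116) as a covariate.

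Of the genes of DNA repair and nucleotide supply, Ddb2, Polk and Xpc were called after 6 Gy against control. Ddb2 and Xpc recognize lesions for nucleotide excision repair, Polk is a translesion polymerase, Ercc5 is a repair endonuclease, and Rrm2b is a subunit of ribonucleotide reductase. On day 1 controls held 10.3, 12.3, 11.5 and 11.003 CPM of Ddb2 and 6 Gy tumors 14.4, 15.1, 19.8, 18.7 and 17.03 CPM (log2 fold change 0.60, SE 0.11, adjusted p = 0.000827). Ddb2 stayed higher on day 3, at 16.9 to 19.9 CPM against 11.8 to 13.6 CPM (0.56, SE 0.11, adjusted p = 0.0049), and on day 7 (0.42, SE 0.12, adjusted p = 0.0232). In INDO-treated tumors the day 1 values were 13.3, 14.7, 16.1, 12.9 and 12.7 CPM without and 18.7, 17.2, 18.003, 15.3 and 16.7 CPM with 6 Gy, and the change was not called (0.27, SE 0.10, adjusted p = 0.371). As a mean over days the 2 effects on Ddb2 differed (interaction -0.25, SE 0.07, adjusted p = 0.0139), with 0.34 against control and 0.09 on top of INDO. Pmaip1 and Ddb2 were the members with a called interaction, 1 positive and 1 negative, against a call in 7.58% of all genes tested (5.65% higher and 1.92% lower).

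Polk on day 1 was at 26.5, 32.4, 37.6 and 38.8 CPM in controls and 45.8, 46.2, 46.6, 47.6 and 49.5 CPM after 6 Gy, with no overlap (log2 fold change 0.48, SE 0.09, adjusted p = 0.00191). In INDO tumors it was at 32.4, 33.1, 36.2, 32.6 and 28.6 CPM and in 6 Gy + INDO tumors at 34.7, 35.4, 32.8, 34.5 and 34.98 CPM (0.05, SE 0.09, adjusted p = 0.853). Xpc rose on day 1 as well (0.28, SE 0.09, adjusted p = 0.0362), while Rrm2b at 0.37 and Ercc5 at 0.13 did not pass. So 3 of the 5 rose after 6 Gy on day 1, where 6.15% of all genes tested were called higher. On top of INDO edgeR called 0 of the 5 (1 at an unadjusted p under 0.05, and 0 by DESeq2), where 4 genes in all (0.018%) were called. Of these, Ddb2 was the only gene of the 5 with a called interaction.

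The apoptosis genes numbered 10, and they were tested gene by gene. They include Bax, Bbc3 (PUMA) and Pmaip1 (NOXA), which act at mitochondria, Apaf1 of the apoptosome, Bcl2l1, which opposes cell death, Pidd1, a scaffold for caspase activation, and Phlda3, an inhibitor of AKT signaling. edgeR called 0 of 10 in either comparison on day 1, against a call in 15.6% of all genes tested after 6 Gy and 0.018% on top of INDO. At an unadjusted p under 0.05 there were 2 against control and 4 on top of INDO, and DESeq2 called 0 in both. Their day 1 log2 fold changes ran from -0.27 to 0.45 after 6 Gy and from -0.37 to 0.55 on top of INDO. Bax was at 26.2 ± 5.72 CPM (SD) in 4 controls and 31.6 ± 7.75 CPM in 5 tumors given 6 Gy, with an interval of -0.02 to 0.58 on the log2 scale. Bbc3 was at 3.96 ± 0.534 and 4.21 ± 1.06 CPM in the same groups (interval -0.34 to 0.53). Phlda3 had the highest values of the group, 0.45 (adjusted p = 0.146) and 0.55 (adjusted p = 0.351).

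Pmaip1 was the only apoptosis gene that edgeR called after 6 Gy against control, and none was called on top of INDO. Its level on day 7 was 8.83, 12.5, 6.56, 6.97 and 8.81 CPM in controls and 6.15, 5.31, 7.21, 4.51 and 6.24 CPM after 6 Gy (log2 fold change -0.57, SE 0.18, adjusted p = 0.0358). This call was lost in 11 of 20 fits that left out 1 tumor (-0.66 to -0.41), and also when housekeeping genes set the scale. Averaged over days it fell after 6 Gy (-0.36, SE 0.09, adjusted p = 0.00293) and was 0.16, SE 0.09, adjusted p = 0.259 on top of INDO. The 2 effects differed (interaction 0.52, SE 0.13, adjusted p = 0.00632), although no member had a called interaction once the tumors with receptor reads were left out. Apart from radiation, INDO lowered Pmaip1, Phlda3, Apaf1 and Ei24 against control as a mean over days, as listed with the INDO comparison below.

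Among the arrest genes, Gadd45a, which encodes a stress sensor that binds PCNA and p21, rose on day 1 after 6 Gy from 10.3, 12.1, 11.2 and 8.58 CPM to 12.9, 10.2, 45.1, 33.8 and 16.1 CPM (log2 fold change 1.17, SE 0.37, adjusted p = 0.036). The highest 2 of these 5 tumors, at 45.1 and 33.8 CPM, stood well above the controls, and 1 lay within the control range. With INDO its values were 19.2, 17.6, 23.8, 17.3 and 27.8 CPM without and 53.95, 20.7, 33.4, 26.2 and 32.3 CPM with 6 Gy (0.62, SE 0.34, adjusted p = 0.542). Btg2, an antiproliferative immediate-early gene, fell after 6 Gy on day 1, from 19.8, 14.5, 18.8 and 23.3 CPM to 13.7, 14.1, 13.01, 9.95 and 10.7 CPM (log2 fold change -0.63, SE 0.15, adjusted p = 0.00837). Its highest single value on day 3, 45.4 CPM, was in the INDO tumor whose T cell markers summed to 451 CPM, where the median of that group was 61.1 CPM. Plk2 and Plk3, polo-like kinases, were called in neither radiation comparison on any day, nor as a mean over days, with mean log2 fold changes of -0.02 and 0.00 after 6 Gy.

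Of the death receptors besides Eda2r, Tnfrsf10b, the mouse TRAIL receptor, rose after 6 Gy on day 1 (0.31, SE 0.09, adjusted p = 0.0216) and as a mean over days (0.23, SE 0.06, adjusted p = 0.00229), and it was 0.01 on top of INDO. Fas was called in no radiation comparison, with mean log2 fold changes of 0.03 and -0.06. Of the other stress genes, Sesn2 (0.04 and -0.01) and the glycolysis regulator Tigar (-0.09 and -0.02) were not called either. Gdf15, a secreted stress cytokine, was at 0.0212 to 1.17 CPM, too low for a firm statement.

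**Figure D4:**
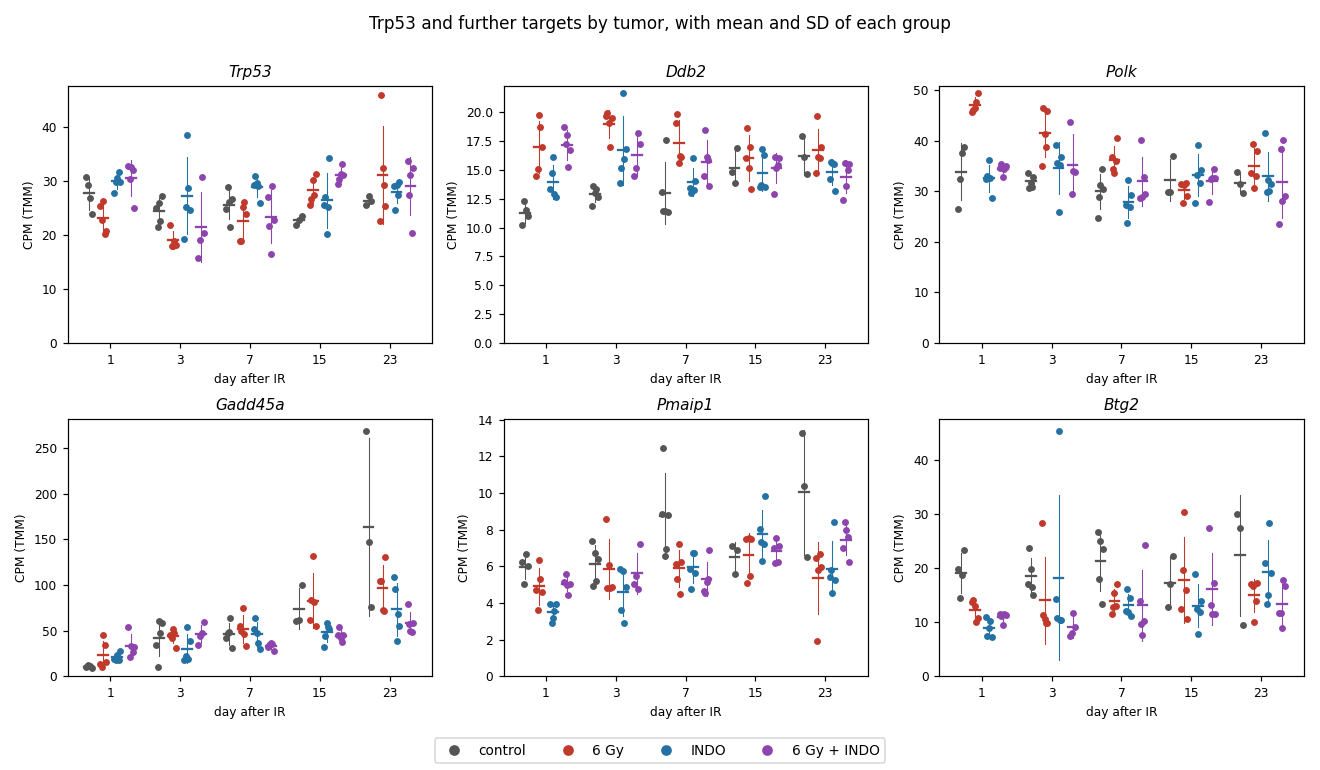
CPM of Trp53, Ddb2, Polk, Gadd45a, Pmaip1 and Btg2 by day after IR, 1 point per tumor with the group mean and SD, for the 4 treatments. Ddb2 and Polk on day 1 are higher after 6 Gy than in controls (17.000 against 11.3 CPM and 47.1 against 33.8 CPM), and Gadd45a rises with time in controls.

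Other genes of the pathway were taken from 3 further lists, and their counts are set against the shares of all genes tested. For the mean over days these shares were 9.19% higher and 10.6% lower after 6 Gy, and 7.21% higher and 3.54% lower on top of INDO. Of 18 regulators of p53, such as the damage kinases, 4 rose and 0 fell after 6 Gy as a mean over days: Atm by 0.29, Prkdc by 0.25, Atr by 0.24 and Trp53bp1 by 0.23 on the log2 scale. On top of INDO only Kat5 was called, and fell, with 3 of the 18 at an unadjusted p under 0.05, and the interaction was called for Prkdc (-0.34), Atm (-0.39) and Atr (-0.39), where 7.58% of all genes had one. Of 24 other targets of p53, 4 rose and 2 fell after 6 Gy as a mean over days, among them Pvt1 (0.64), Psrc1 (0.52) and Dram1 (-1.04). With INDO in both groups 3 rose and 0 fell, of which Psrc1 (0.57) was called in both. The third list held 20 mitotic genes that p53 is known to repress through p21. On day 1 after 6 Gy 7 of the 20 rose and 0 fell (Ccnb2 by 1.00, Ccnb1 by 0.84, Cenpf by 0.70 and Cdc25c by 0.58), with a median of 0.40 against 0.06 over all genes tested, where 6.15% of all genes tested rose. On top of INDO edgeR called 0 of the 20 on day 1 although 13 had an unadjusted p under 0.05, and their median was 0.36 against -0.02.

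INDO without radiation went with lower levels of many members. As a mean over days 0 of the 32 rose and 10 fell against control (Pmaip1, Sesn1, Ccng1, Phlda3, Rrm2b, Plk2, Btg2, Eda2r, Apaf1, Ei24), against a call in 34.2% of all genes tested (16.8% higher and 17.4% lower), but with scaling by 14 housekeeping genes 7 rose and 2 fell. The falls ran from -0.15 (Ei24) to -0.65 (Eda2r) on the log2 scale. With both agents 5 rose and 10 fell against control, against a call in 52.8% of all genes tested (29.6% higher and 23.2% lower), but 17 rose and 0 fell with housekeeping scaling. Housekeeping scaling moved the median of all genes by 0.16 for INDO and 0.31 for both agents, so the count in each direction depends on the scaling. Zmat3 (0.54), Ddb2 (0.21), Eda2r (0.49), Cdkn1a (0.25) and Tnfrsf10b (0.13) were higher with both agents under either scaling. Leaving out 1 replicate number ended the call of Cdkn1a (0.14 to 0.30, adjusted p up to 0.4) and that of Tnfrsf10b (0.05 to 0.17, up to 0.593) in 5 of 5 fits, and that of Eda2r in 4 of 5, all but number 3 (0.26 to 0.59, up to 0.395), so of the 5 genes Zmat3 and Ddb2 kept the call in each of these fits. Among host markers INDO lowered 12 of 13 fibroblast, 13 of 14 endothelium and 9 of 12 neutrophil genes as a mean over days, and 5 of 16 epithelium genes; their part in the falls of the members was not tested.

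Without any treatment the levels of these genes changed as the tumors grew. In controls 15 of the 32 differed between days, where 30.2% of all genes did so. Trp53inp1 stood at 21.7 ± 4.24 CPM (SD, n = 4) on day 1 and 57.9 ± 17.2 CPM (SD, n = 3) on day 23, and Gadd45a at 10.5 ± 1.51 CPM (SD, n = 4) and 164 ± 97.7 CPM (SD, n = 3). Xpc went from 19.5 to 36.6 CPM, while Aen, an apoptosis nuclease, went from 34.4 to 18.4 CPM. The late control groups held 3 tumors each, so a change with time in the controls enters each later comparison with few tumors behind it.

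Whether the targets followed tumor or host cells was read from the slope of each member on 7 marker scores within the 20 groups. A score is the mean log2 CPM of a marker list, and a slope is the log2 change of a gene per SD of that score within groups. Tumors of a group share treatment and day, so the slopes use differences among like tumors. A slope shows that a gene and a cell type vary together in bulk RNA and not which cell holds the transcript.

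**Figure D5:**
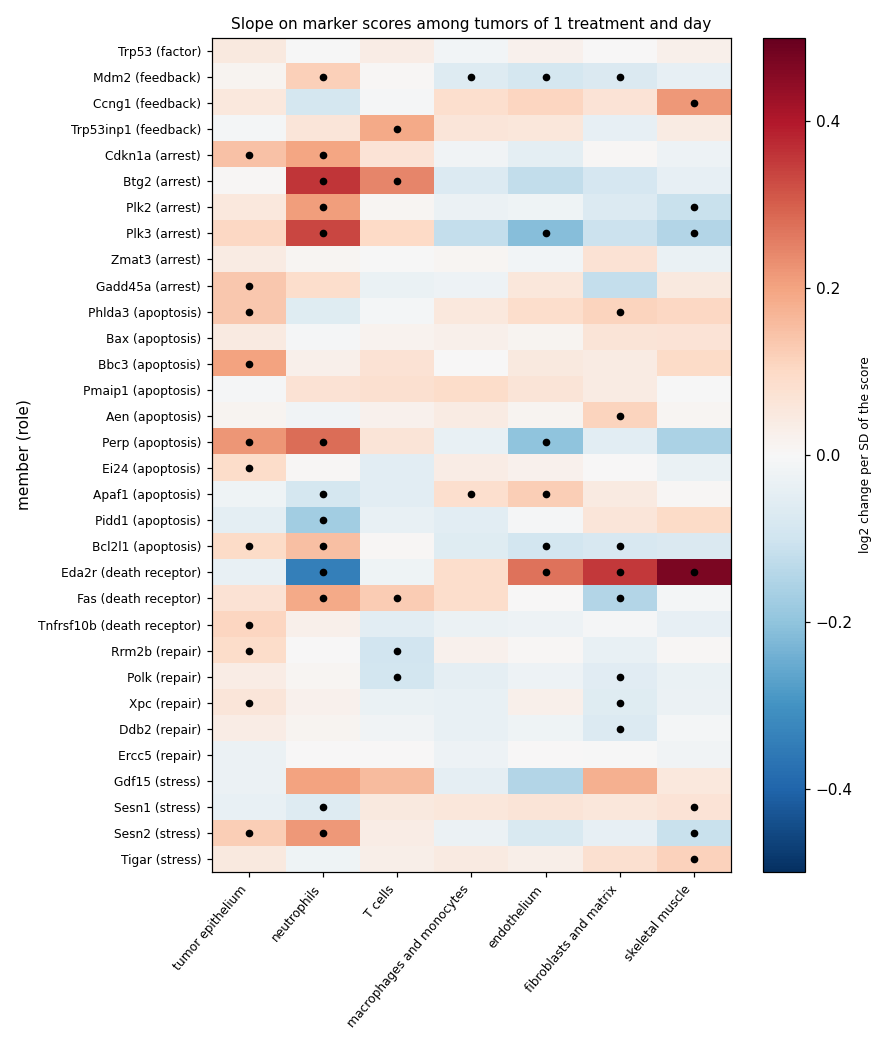
Slope of each of the 32 genes (rows, with role) on the 7 marker scores (columns), in log2 units per SD of the score within groups, with a black dot where the slope was called. Positive slopes gather in the tumor epithelium and neutrophils columns, and Eda2r is steepest on skeletal muscle (0.47).

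On the tumor epithelium score 11 members had a called positive slope and 0 a called negative one, against 55.1% of all genes (19.4% positive and 35.7% negative). With housekeeping scaling 0 were called positive and 15 called negative. Perp (0.22), which encodes a desmosome protein, Bbc3 (0.20), Cdkn1a (0.15) and Phlda3 (0.14) had the steepest TMM slopes. With housekeeping scaling Perp, Bbc3, Cdkn1a and Phlda3 kept a positive slope but lost the call. For other members, such as Bcl2l1, Ei24 and Xpc, the sign turned. The calls, and for some members the sign, thus depend on the scaling. All 32 members lay above the median slope of all genes with either scaling (members' median 0.05 against -0.09, and -0.08 against -0.21), and 27 did so without the tumors with receptor reads (0.06 against -0.03). That median covers every gene that passed the filter on low counts. No set of genes matched to the members by level was compared.

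On the neutrophil score 9 members had a positive slope and 4 a negative one, against 16.8% of all genes (8.75% positive and 8.06% negative). The 9 were Btg2 (0.36, SE 0.04, adjusted p = 1.15e-12), Plk3 (0.33), Perp (0.28), Sesn2 (0.22), Plk2 (0.21), Cdkn1a (0.20), Fas (0.19), Bcl2l1 (0.15) and Mdm2 (0.12). All 9 were positive and called in each of the 4 settings run, which were the score alone, all 7 scores in 1 fit, housekeeping scaling and the tumors without receptor reads. Of the negative slopes, that of Pidd1 (-0.17) was called in all 4.

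T cells had 3 members with a positive slope (Btg2 0.24, Trp53inp1 0.19, Fas 0.13) and 2 with a negative one (Polk and Rrm2b, -0.09 each), against 17% of all genes (8.85% positive and 8.11% negative). Those of Btg2, Trp53inp1, Polk and Rrm2b were called in all 4 settings. Each setting kept the INDO tumor of day 3 whose T cell markers summed to 451 CPM, with Btg2 at 45.4 CPM. Trp53inp1 also had an outlying value, 64.5 CPM, in that group. Slopes were not fitted without single tumors, so how far the T cell slopes rest on such a tumor was not tested. Macrophages gave 1 of each sign, Apaf1 (0.09) and Mdm2 (-0.07), against 9.55% of all genes (6.17% positive and 3.39% negative). Endothelium gave 2 positive, Eda2r (0.27) and Apaf1 (0.12), and 4 negative, against 12% of all genes (5.92% positive and 6.09% negative). Fibroblasts and matrix gave 3 positive, Eda2r (0.35), Aen (0.11) and Phlda3 (0.11), and 6 negative, against 9.88% of all genes (4.52% positive and 5.37% negative).

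Skeletal muscle, the tissue beside the tumor, had 4 members with a positive slope and 3 with a negative one, against 6.26% of all genes (4.6% positive and 1.67% negative). Eda2r had a slope of 0.47, SE 0.06, adjusted p = 3.88e-10, and it stayed between 0.41 and 0.52 over the settings. Ccng1 (0.22) and Tigar (0.12) were also called in all 4 settings, and Sesn1 (0.07) was the remaining positive slope. Zmat3, Trp53, Bax, Pmaip1, Ercc5 and Gdf15 had no called slope on any of the 7 scores when each score was fitted alone with TMM. With all 7 scores in 1 fit, Zmat3 (fibroblasts), Trp53 and Bax (epithelium) and Pmaip1 (neutrophils) had a positive one. With housekeeping scaling Zmat3, Trp53, Bax, Pmaip1 and Ercc5 had a negative one on epithelium, and without the tumors with receptor reads Pmaip1 had a positive one on macrophages. Zmat3, called after 6 Gy in both comparisons, had slopes between -0.03 and 0.07 in the fits of single scores. Of the members called in a radiation comparison, Cdkn1a, Btg2, Eda2r, Mdm2, Sesn1, Polk and Xpc had called slopes on at least 2 scores.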

How the data were processed

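RNA from 94 tumors was sequenced as stranded, paired-end total RNA libraries. The authors trimmed reads with Cutadapt, and the submitters' processing notes name STAR, mm10 and Partek Flow 11.0.24.0328. The counting tool and its annotation are not named in those notes or in the methods. The authors deposited 1 table of expected counts (estimated counts per gene, 15.5% of values not whole), which can share out reads that fit several genes, so values of close paralogs are less certain. The counts were rounded, and tests were run with edgeR 4.0.16 in R 4.3.3 (filterByExpr, TMM, quasi-likelihood F test, Benjamini-Hochberg), on limma 3.58.1, with DESeq2 1.42.0 as an alternative. Gene positions are those of the RefSeq annotation of GRCm38. Treatment and day came from the labels, and 0 columns stayed unmapped. The study's own test, in Partek with p under 0.05 and a 2-fold change, was run here only as limits on edgeR's results.

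Within-day comparisons came from 1 fit of the 4 groups of that day. Means over days, tests between days and slopes on marker scores (mean log2 CPM, prior count 2, in units of the SD within groups) came from 1 fit of all 94 tumors and their 20 groups. An interval is the estimate with 1.96 SE to each side. Scripts were tested on simulated data.

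The 32 genes, the other lists and the tests were chosen with earlier results of these data known. Described in full were Trp53, Cdkn1a, Mdm2 and each member called in the same direction in both radiation comparisons on the same day or as a mean over days. The others are given by count and range, with values where they passed, and up to 4 genes of each further list by smallest p. Alternatives changed the scaling, the filter, the tool, the tumors and days used, the call limits and the covariates. The muscle score as a covariate was added after seeing the data. Members named with values although not called were chosen after those values were seen. Replicate numbers of the labels did not pair the tumors: same-numbered tumors did not all deviate together.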

Additional observations from a re-analysis of the deposited data

Results flagged for a closer look

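In 126 groups of 4 or 5 tumors, formed by the fully described genes, 1 tumor stood apart from the rest of its group in 10, where chance gives about 1 in 20. On day 3 after 6 Gy, replicate 1 was the highest of its group for Trp53 (21.8 CPM) and Cdkn1a (50.9 CPM). On day 15 after 6 Gy, replicate 3 was the highest for Cdkn1a (45.4 CPM) and Mdm2 (107 CPM). Cdkn1a was at 51.8 CPM in replicate 3 of 6 Gy + INDO on day 3. Mdm2 was at 72.8 CPM in replicate 1 of the controls on day 3 and at 68.6 CPM, the lowest of its group, in replicate 3 of 6 Gy + INDO on day 15. Trp53inp1 was at 44.5 CPM in replicate 4 of 6 Gy + INDO on day 1 and at 64.5 CPM in replicate 3 of INDO on day 3. Eda2r was at 3.35 CPM in replicate 3 of 6 Gy + INDO on day 7.

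The effect of 6 Gy differed between groups for 6 genes by edgeR's quasi-likelihood F test. Between days it differed for Trp53inp1 against control (adjusted p = 0.0135) and on top of INDO (0.0089), for Ddb2 against control (0.0331), and on top of INDO for Cdkn1a (0.013), Bcl2l1 (0.00574) and Eda2r (0.000445). With and without INDO, as a mean over days, it differed for Pmaip1 (adjusted p = 0.00632) and Ddb2 (0.0139).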

How the results depend on the processing

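Counts are of members called, and the cause of a change was not tested unless stated. For 6 Gy against control the count of 11 on day 1 was 4 with all 94 tumors in 1 fit, 5 with scaling by housekeeping genes, 6 without a filter on low counts, 7 with the muscle score as a covariate and 2 at the study's limits (2-fold or more and p under 0.05). Leaving out 1 tumor gave 5 to 12, with 6 without control replicate 1 and 5 without control replicate 3 or 4. On day 3 the count of 2 was 7 by DESeq2, 4 in the fit of all tumors, 0 with housekeeping scaling, 1 without a filter, 1 at the study's limits and 4 with the muscle score. It was 1 to 4 with 1 tumor left out (4 without INDO replicate 3, and 1 without 6 Gy replicate 3, 4 or 5 or control replicate 1 or 2). On day 7 the count of 4 was 7 with housekeeping scaling, 1 without a filter, 0 at the study's limits, 2 with the replicate block and 2 with the epithelium score. It was 1 to 5 with 1 tumor left out (1 without 6 Gy replicate 2 or control replicate 2 or 5, and 2 without 6 Gy replicate 4 or 5 or control replicate 1). On day 15 it was 0 to 0 and on day 23 0 to 0 with 1 tumor left out, and on day 23 1 in the fit of all tumors. On top of INDO the day 1 count of 2 was 4 by DESeq2, 1 with RLE factors, 1 with the replicate block and 0 without the tumors with receptor reads. It was 0 to 3 with 1 tumor left out (0 without any 1 of the 5 INDO tumors). On day 3 the count of 1 was 2 in the fit of all tumors, 6 with housekeeping scaling, 2 without a filter, 2 with the epithelium score and 0 without the receptor-read tumors, which leaves 1 tumor given both agents, assumed to vary like the other groups. It was 1 to 4 with 1 tumor left out (4 without 6 Gy + INDO replicate 3, and 2 without INDO replicate 1 or 3). On day 7 the count of 0 was 2 with housekeeping scaling and 0 to 1 with 1 tumor left out (1 without 6 Gy + INDO replicate 1). On day 15 it was 0 to 0 and on day 23 0 to 0, and on day 23 1 by DESeq2, 3 in the fit of all tumors and 1 at the study's limits.

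For means over days, leaving out all tumors of 1 replicate number gave 5 to 9 for 6 Gy against control (8 with all tumors, 5 without number 2), 6 to 11 for INDO (10, 6 without number 2 or 3), 10 to 14 for both agents against control (15), 2 to 4 on top of INDO (4, 2 without number 1, 2 or 5) and 0 to 3 for the interaction (2, 0 without number 1 or 2). At the study's limits these 5 counts were 0, 0, 0, 1 and 0. The count after 6 Gy was 4 without day 1, that for INDO 4 without day 7, and that for both agents 9 with the epithelium score. On top of INDO it was 13 with housekeeping scaling and 1 without day 3. The interaction was 1 with housekeeping scaling, 0 without day 1, 1 without day 3, 6 without day 15, 1 without day 23 and 0 without the receptor-read tumors. The count of effects that differ between days fell from 2 to 0 with housekeeping scaling against control, and from 4 to 0 without the receptor-read tumors on top of INDO. Slope counts moved for fibroblasts (9 to 5 with housekeeping scaling), macrophages (2 to 7 with it, and to 4 without the receptor-read tumors) and muscle (7 to 4 with it, and to 4 with all 7 scores in 1 fit). The replicate block changed no other count by over 1.5 times. Correlations of same-numbered tumors' deviations ran from -0.578 to 0.592 over the 10 pairs of groups. All tumors' correlations were over 0.1 in none of the 10, with the most, 4 of 5, for 6 Gy + INDO with INDO on days 15 and 23, so the numbers were taken only to name tumors.

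Housekeeping scaling moved the median of all genes on top of INDO by 0.34 on day 3, 0.25 on day 7, 0.24 on day 23 and 0.15 as a mean, after 6 Gy by 0.17 on day 7 and 0.13 on day 23, and for the interaction by 0.11. It turned the direction, with both agents against control, of Apaf1 (0.0400), Ccng1 (0.0763), Ei24 (0.175), Ercc5 (0.187), Fas (0.00282), Plk2 (0.119), Pmaip1 (0.0412) and Rrm2b (0.085), that of Ei24 after INDO (0.0233), and the epithelium slopes of Bcl2l1 (-0.0289), Ei24 (-0.0299), Mdm2 (-0.108), Rrm2b (-0.0315), Sesn2 (-0.00432), Tnfrsf10b (-0.013), Trp53 (-0.0744) and Xpc (-0.063). Leaving out 1 tumor ended the call of Eda2r on day 1 after 6 Gy in 7 of 19 fits (1.08 to 1.52), on day 3 in 6 of 19 (0.89 to 1.32), that of Gadd45a on day 1 in 6 of 19 (0.80 to 1.37), and that of Sesn1 on day 1 in 6 of 19. Libraries of the INDO groups were shallower in the median over all days and controls on days 15 and 23 numbered 3, and their part in the low counts there was not tested.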
